A study of Mus musculus with 9 samples.

Results

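The clock output factors of the liver were described here as 9 genes, Dbp, Tef, Hlf, Nfil3, Ciart, Bhlhe40, Bhlhe41, Rora and Usp2, out of 33211 genes in the deposited count table. They were taken by gene symbol, and were chosen from the group difference in these same libraries as well as from their place in the circadian clock. Their differences between the groups are thus given as a description, and where a call is given for a member it is not evidence of a difference. Of the 9, 8 were found by symbol, and Ciart was found by its Ensembl identifier ENSMUSG00000038550 because the table lists it under the older symbol Gm129. All 9 passed the filter on low counts, as did 14220 of the 33211 genes. The RNA came from livers of wild-type male mice, given as C57BL/6 in the labels and as C57BL6/J in the methods, an inbred laboratory strain, and was sequenced after the mice had received a high-fat diet (HFD) kept after opening either in a freezer at -20 °C (HFDfre, n = 5) or in a fridge at 4 °C (HFDfri, n = 4). Per the methods of the study the mice were 8 weeks old at the start and were kept for 7 weeks on the diet under 12 h of light per day, and neither an allele nor a drug is named for either group. The comparison addresses how storage of the diet affects the liver. The hour at which the livers were collected is not given in the sources used here.

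The circadian clock is a feedback loop in which CLOCK and BMAL1 (gene Arntl) activate transcription at E-box sequences, and the PER and CRY proteins they induce then repress them. The loop drives output factors, of which the PAR bZIP proteins DBP, TEF and HLF activate genes at D-box sequences and NFIL3 represses genes at the same sequences. In the liver the PAR bZIP proteins are known as regulators of detoxification and lipid genes, and the level of Dbp swings widely over the day, so that a level at one time cannot be read as a daily mean. CIART, BHLHE40 (DEC1) and BHLHE41 (DEC2) are repressors of CLOCK-BMAL1, RORA is a nuclear receptor that activates Arntl at the sites where the REV-ERB repressors bind, and USP2 is a deubiquitinase whose transcript is rhythmic.

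The DNA upstream of the members is shown first because the sites found there differ between members. The 250 bases before each RefSeq transcript start (build GRCm38.p6) were searched on both strands for the E-box CACGTG, the D-box TTACGTAA or TTATGTAA, and the core site of ROR and REV-ERB receptors TAGGTCA or TGGGTCA. An entry existed for 8 of the 9 members. Of these, 3 members, Tef, Ciart and Bhlhe41, held an E-box and 1, Nfil3, held a ROR core. None of Dbp, Hlf, Rora and Usp2 held any of these letters in this window, and 0 members held a D-box. Among all 32851 promoters searched, 6.02% held the E-box, 0.931% the D-box and 5.38% the ROR core. Matches are printed in capitals, 5′ to 3′ on the strand of the gene, with exon bases of the GENCODE M21 annotation left out or, where the match lies in an exon, with at most 30 bases around it.
Ciart, chr3:95882252-95882478, minus strand: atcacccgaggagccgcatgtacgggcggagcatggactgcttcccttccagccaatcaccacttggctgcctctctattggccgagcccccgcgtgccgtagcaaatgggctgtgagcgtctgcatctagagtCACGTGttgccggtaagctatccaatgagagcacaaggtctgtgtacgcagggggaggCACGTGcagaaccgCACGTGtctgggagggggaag
Tef, second start, chr15:81811164-81811413, plus strand: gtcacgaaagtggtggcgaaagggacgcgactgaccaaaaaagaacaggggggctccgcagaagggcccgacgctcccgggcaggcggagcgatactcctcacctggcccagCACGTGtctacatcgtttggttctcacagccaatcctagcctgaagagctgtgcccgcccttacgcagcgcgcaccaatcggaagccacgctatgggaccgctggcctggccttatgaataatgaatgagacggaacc
Tef, first start, chr15:81802534-81802563, plus strand: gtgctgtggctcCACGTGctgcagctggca
Bhlhe41, chr6:145865559-145865670, minus strand: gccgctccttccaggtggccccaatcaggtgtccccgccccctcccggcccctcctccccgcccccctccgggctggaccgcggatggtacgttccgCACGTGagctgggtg
Nfil3, chr13:52981040-52981063, minus strand: ggcgctcggaacTGACCTActaac
The capitals mark E-boxes in Ciart, Tef and Bhlhe41, and in Nfil3 the ROR core read on the opposite strand. Ciart held 3 E-boxes, which end 110, 52 and 38 bases before its start. Tef held 1 before each of its 2 listed starts, and the Nfil3 match ends 5 bases before the start. A match is a description of letters and not evidence that a factor binds there.

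Levels are given as CPM, a gene's count as a share of its library, after TMM scaling between libraries, as mean ± SD. The deepest library, with 69353439 counts, held 1.18 times as many as the shallowest, with 58614917. Of 14220 genes tested with edgeR's quasi-likelihood test, 150 passed an adjusted p of 0.05, which is 1.05%, with 79 lower (0.556%) and 71 higher (0.499%) in HFDfri. Of 39 tested markers of 8 liver and blood cell types, 1 passed, Alas2 of the red cell list. The summed level of 7 hepatocyte markers ran from 91988 to 98888 CPM in HFDfre and from 82598 to 113954 CPM in HFDfri, and that of 6 Kupffer cell markers from 50.2 to 115 CPM and from 61.0 to 81.0 CPM. No defining marker was at 0 in every library. Fewer cells of a type and less RNA per cell cannot be told apart in whole liver. A ribosomal RNA-like locus, Gm26924, took 0.466 to 11.1% of the counts of a library, with the highest share in HFDfre 1.

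**Figure D1:**
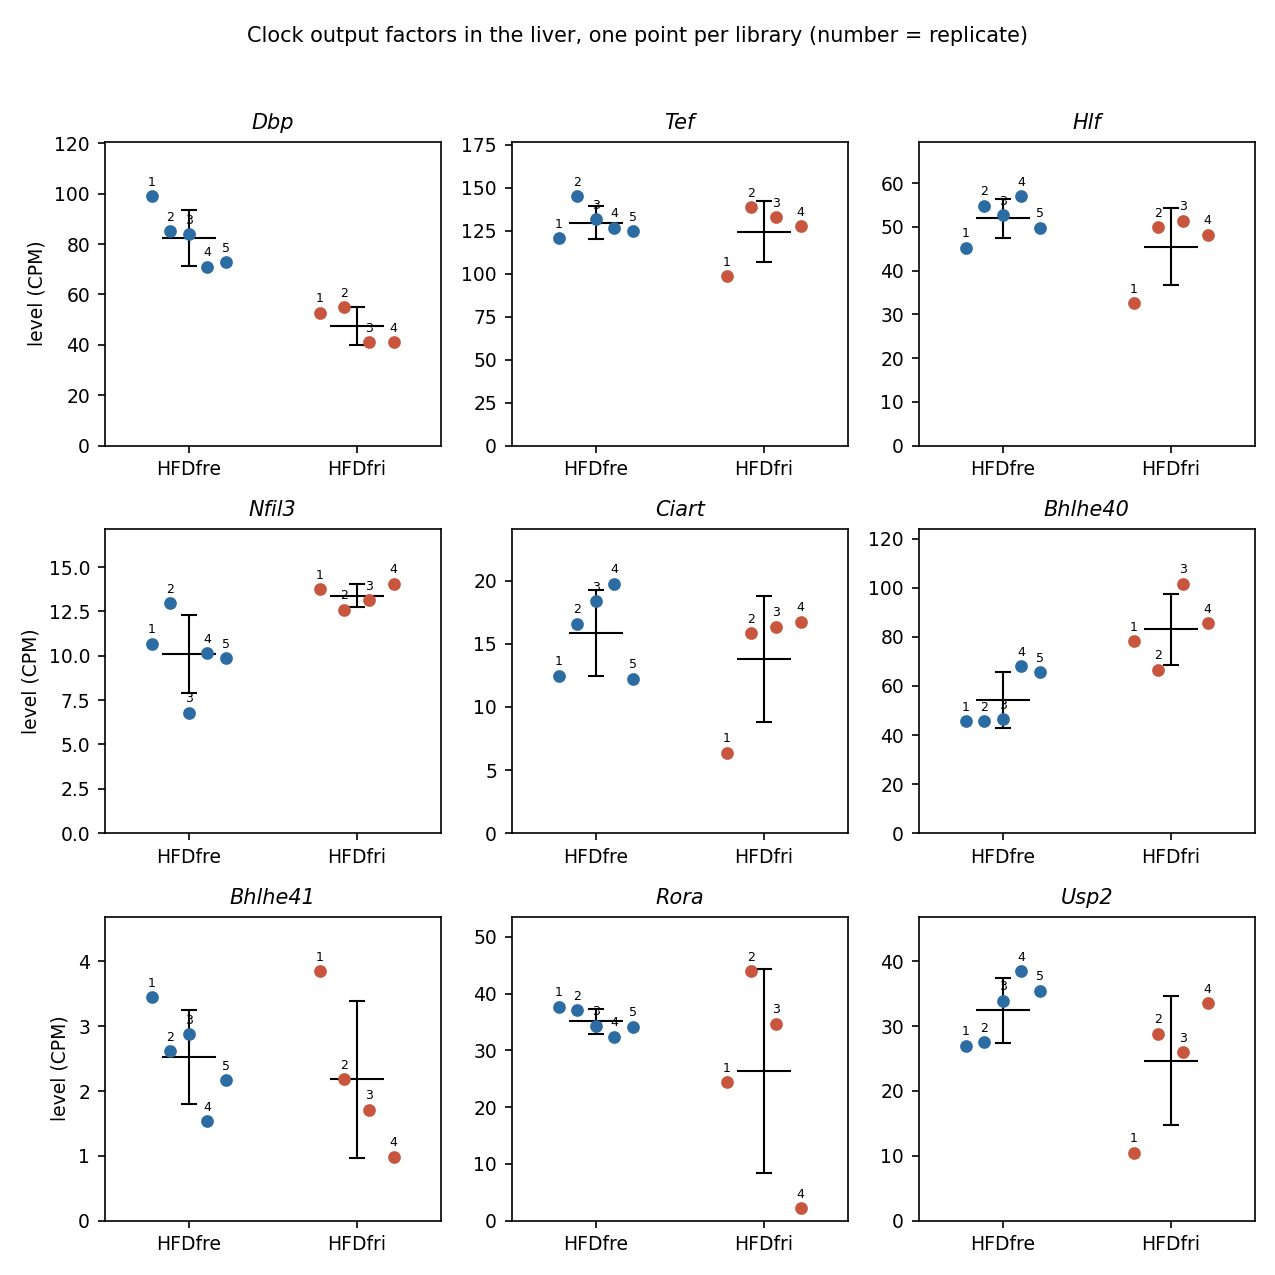
Level in CPM of each of the 9 clock output factors (y axis, from 0, with its own scale per gene) in the 5 HFDfre libraries (blue) and the 4 HFDfri libraries (red), numbered by replicate; black bars are the mean ± SD. Only the Dbp points of the groups do not overlap, HFDfri 1 is the lowest point for Tef, Hlf, Ciart and Usp2, and the Rora point of HFDfri 4 lies at 2.21 CPM.

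Dbp was lower in the liver of HFDfri mice. Dbp (ENSMUSG00000059824, chr7:45705088-45710203, plus strand) stood at 98.9, 85.0, 84.0, 71.0 and 72.9 CPM in HFDfre 1 to 5 and at 52.7, 54.9, 41.0 and 41.0 CPM in HFDfri 1 to 4. Every HFDfri library was below every HFDfre library. The means were 82.4 ± 11.2 and 47.4 ± 7.46 CPM, a log2 fold change of -0.80 ± 0.13 (SE), or a level 1.74-fold higher in HFDfre. With edgeR, Dbp was the only member past the adjusted threshold over all genes, while DESeq2 placed both Dbp and Bhlhe40 past it, and Dbp was the only member whose groups did not overlap, against 1.05% of all tested genes past the threshold and 7.69% without overlap (3.66% lower, 4.02% higher). Since the members were chosen with these values known, nothing is read from these counts. The log2 fold change of Dbp lay between -0.88 and -0.73 over the 17 alternatives, and the call held in 11 of them. It was lost on leaving out HFDfre 3, HFDfre 5, HFDfri 3 or HFDfri 4. It was also lost with the replicate number as a block and with the Gm26924 share as a covariate. With the block 0 of all tested genes passed, so the loss there is not particular to Dbp, whose log2 fold change was -0.84. Exons of Dbp overlap those of Sphk2 on the other strand, and the use of strand in counting is not stated. Sphk2 itself differed by a log2 fold change of 0.04 ± 0.12. How reads of the shared exons were counted was not tested.

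The other PAR bZIP transcripts overlapped between the groups. Tef (ENSMUSG00000022389, chr15:81802421-81826863) stood at 121, 145, 132, 127 and 125 CPM in HFDfre and at 98.6, 138, 133 and 128 CPM in HFDfri. All HFDfri values other than HFDfri 1 lie inside the range of HFDfre. The log2 fold change was -0.06 ± 0.11. Hlf (ENSMUSG00000003949, chr11:90336536-90390895) stood at 45.3, 54.8, 52.7, 57.0 and 49.8 CPM in HFDfre and at 32.6, 49.9, 51.4 and 48.2 CPM in HFDfri. Here too HFDfri 1 alone lay below all other libraries, and the log2 fold change was -0.19 ± 0.13, or -0.07 without HFDfri 1. Dbp was also set against its relatives within each library. On the log2 scale Dbp minus Tef was -0.66 ± 0.221 in HFDfre and -1.39 ± 0.362 in HFDfri, while Tef minus Hlf was 1.32 ± 0.104 and 1.46 ± 0.101.

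Nfil3, the repressor that competes with the PAR bZIP proteins, lay on average on the other side. Nfil3 (ENSMUSG00000056749, chr13:52967209-52981073) stood at 10.7, 13.0, 6.79, 10.1 and 9.87 CPM in HFDfre and at 13.7, 12.6, 13.1 and 14.1 CPM in HFDfri. The groups overlapped only through HFDfre 2. The means were 10.1 ± 2.21 and 13.4 ± 0.647 CPM with a log2 fold change of 0.41 ± 0.15. The HFDfri values lay close together, with an SD of 0.0699 on the log2 scale against 0.338 in HFDfre, where HFDfre 3 lay lowest. Without HFDfre 3 the log2 fold change was 0.29. The log2 difference of Dbp minus Nfil3 transcripts ran from 2.71 to 3.62 in HFDfre and from 1.54 to 2.12 in HFDfri, so that the mean moved by -1.24. It leaves out Tef and Hlf and does not measure the proteins. Dbp and Nfil3 were chosen with this contrast known, so the separate ranges are a description.

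Among the repressors of CLOCK-BMAL1, Bhlhe40 was the member with the largest positive difference. Bhlhe40 (ENSMUSG00000030103, chr6:108660629-108666925) stood at 45.7, 45.6, 46.5, 68.1 and 65.7 CPM in HFDfre and at 78.3, 66.7, 102 and 85.6 CPM in HFDfri. HFDfre split into 3 libraries near 46 CPM and 2, at 68.1 and 65.7 CPM, level with the lowest HFDfri library. The means were 54.3 ± 11.5 and 83.0 ± 14.6 CPM, with a log2 fold change of 0.61 ± 0.16. Its relative Bhlhe41 (ENSMUSG00000030256, chr6:145858243-145865558) was the least abundant member, at 1.53 to 3.45 CPM (median 2.62) in HFDfre and 3.85, 2.18, 1.71 and 0.987 CPM in HFDfri. Its range in HFDfri enclosed that in HFDfre, and the log2 fold change of -0.21 ± 0.35 was smaller than its SE. Ciart (chr3:95878503-95882251) stood at 12.5, 16.6, 18.4, 19.7 and 12.2 CPM in HFDfre and at 6.36, 15.8, 16.4 and 16.7 CPM in HFDfri. Apart from HFDfri 1 the HFDfri values lay within the HFDfre range, and the log2 fold change was -0.20 ± 0.25, or 0.03 without HFDfri 1.

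Rora and Usp2 each carried 1 library far below the rest. Rora (ENSMUSG00000032238, chr9:68653786-69388246) stood at 32.4 to 37.7 CPM in HFDfre and at 24.4, 43.9, 34.7 and 2.21 CPM in HFDfri. HFDfri 4 held 134 counts of Rora against 1372 to 3175 in the other 8 libraries. The log2 fold change of -0.42 ± 0.52 became -0.03 without HFDfri 4 and -0.78 without HFDfri 2. Usp2 (ENSMUSG00000032010, chr9:44067021-44095627) stood at 27.0, 27.5, 33.9, 38.4 and 35.5 CPM in HFDfre and at 10.5, 28.8, 25.9 and 33.5 CPM in HFDfri. Its log2 fold change of -0.39 ± 0.26 became -0.15 without HFDfri 1. Tef, Bhlhe40, Bhlhe41, Rora and Usp2 share exons with non-coding genes on the other strand in the annotation, and with strand use not stated such reads cannot be told apart.

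Across the 9 members 7 had a log2 fold change below 0 and 2 above it, with a median of -0.20 against -0.01 over all tested genes. The median was -0.07 without HFDfri 1 and also -0.07 without HFDfri 4, so that it rested largely on single libraries. Tef changed sign to 0.01 with library totals in place of TMM and to 0.02 without HFDfri 1, and Bhlhe41 to 0.03 without HFDfri 4, while it was -0.64 without HFDfri 1.

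**Figure D2:**
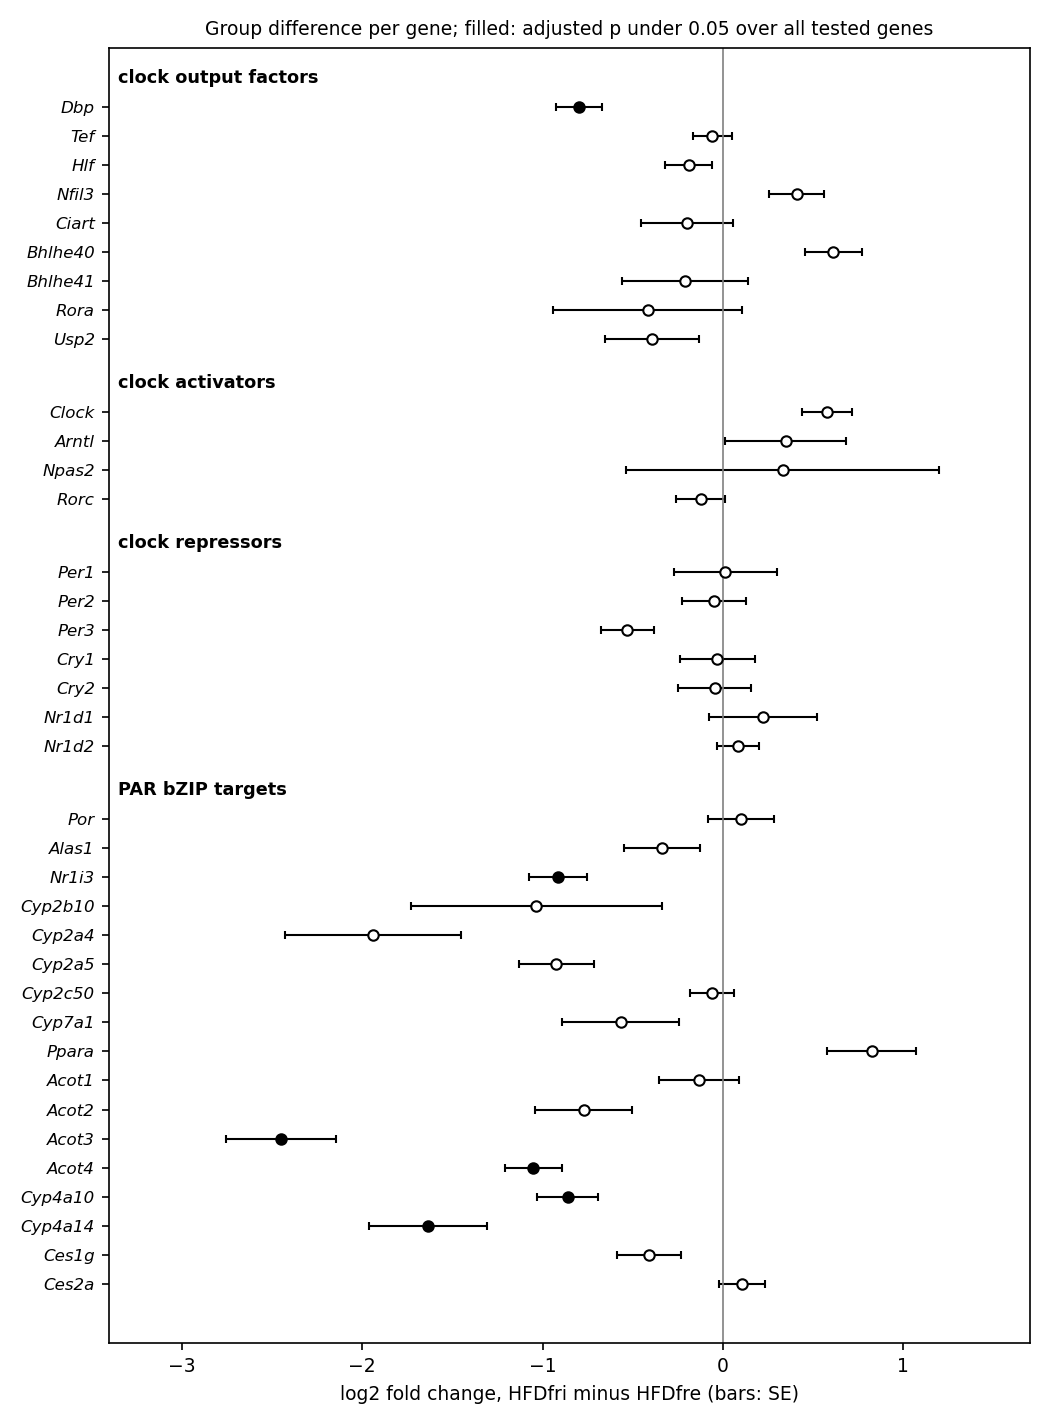
Log2 fold change HFDfri minus HFDfre with its SE (x axis) for the 9 clock output factors and for the tested clock activators, clock repressors and PAR bZIP targets (one row per gene); filled points passed an adjusted p of 0.05 over all tested genes. The filled points are Dbp, a member chosen with this contrast known, and 5 PAR bZIP targets, Nr1i3, Acot3, Acot4, Cyp4a10 and Cyp4a14, all left of 0.

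Ordered by level per kilobase of exon, Dbp led in HFDfre with 27.5 ± 3.75 CPM per kb. It was followed by Tef at 16.5 ± 1.19, Bhlhe40 at 11.5 ± 2.45 and Hlf at 7.77 ± 0.682 CPM per kb, and these 4 did not overlap with each other. Ciart at 7.03 ± 1.51, Usp2 at 6.74 ± 1.04 and Nfil3 at 4.98 ± 1.09 CPM per kb formed a middle group that overlapped from one gene to the next and with Hlf. Rora at 2.69 ± 0.169 and Bhlhe41 at 0.376 ± 0.108 CPM per kb closed the order. In HFDfri the first 3 lay within their spread of each other, Bhlhe40 at 17.6 ± 3.11, Dbp at 15.8 ± 2.49 and Tef at 15.8 ± 2.25 CPM per kb.

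The spread between libraries of one group also set the members apart. The within-group SD of log2 CPM was 0.163 for Tef, 0.209 for Dbp, 0.224 for Hlf, 0.260 for Nfil3 and 0.280 for Bhlhe40, against a median of 0.260 over all tested genes. It was 0.505 for Ciart, 0.523 for Usp2, 0.621 for Bhlhe41 and 1.30 for Rora. Each member lay above the median SD of tested genes of similar level, Tef only narrowly. That median was 0.156 for Dbp and Bhlhe40, 0.159 for Tef and Hlf, and 0.1995 for Nfil3. For Ciart it was 0.188, for Usp2 and Rora 0.164, and for Bhlhe41 0.347. Without HFDfri 1 the within-group SD was 0.0899 for Tef, 0.109 for Hlf, 0.260 for Ciart and 0.214 for Usp2. It was 0.135 for Nfil3 without HFDfre 3, and 0.256 for Rora without HFDfri 4. The Tef, Hlf, Ciart and Usp2 values of HFDfri 1 were thus low together, in a library whose Dbp was not the lowest of its group. In HFDfre 1 Tef, Hlf and Usp2 were also the lowest of their group, with deviations of -0.10, -0.19 and -0.25. Ciart deviated by -0.32 in HFDfre 1, which had the highest Dbp of HFDfre. Of the 36 pairs of members, 6 had a correlation of their deviations over 0.8, and 2 did without HFDfri 1: Hlf with Ciart (r = 0.887) and Dbp with Bhlhe41 (r = 0.828). These correlations over 9 libraries are a description, and the points share their library's scaling.

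**Figure D3:**
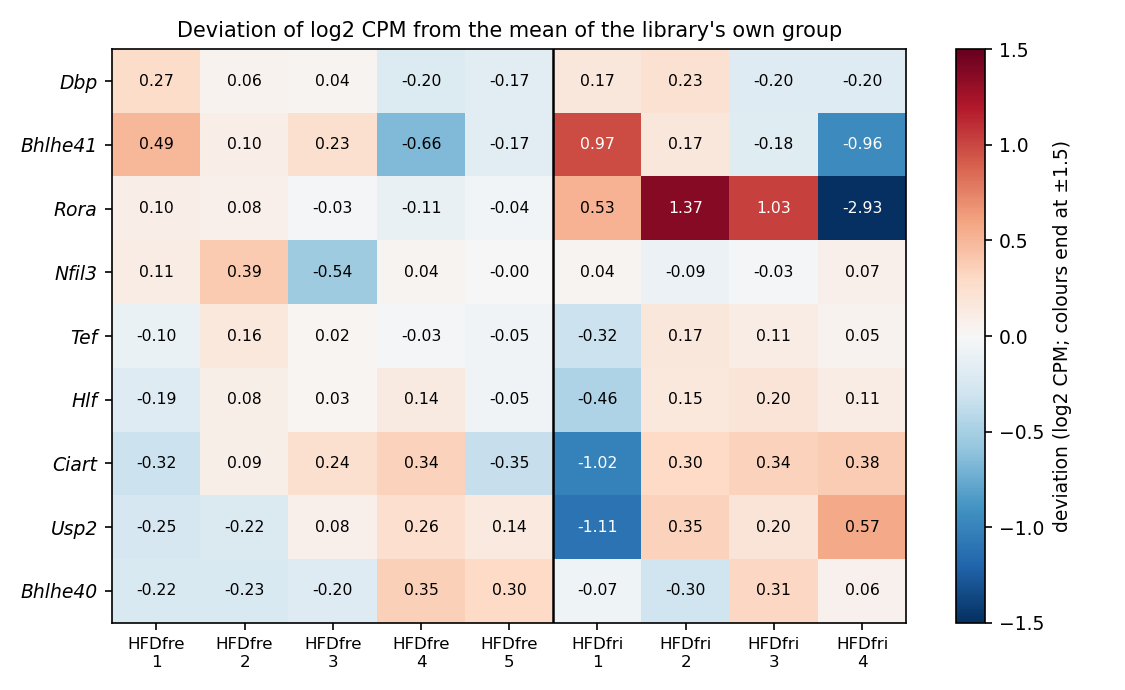
Deviation of log2 CPM from the mean of the library's own group (colour and number, ending at ±1.5 in colour) for each of the 9 members (rows) in each of the 9 libraries (columns, HFDfre left of the line). Tef, Hlf, Ciart and Usp2 are low together in HFDfri 1 and, by less, in HFDfre 1, Dbp and Bhlhe40 are of opposite sign in all 9 libraries, and Rora of HFDfri 4 stands at -2.93.

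Within the groups the level of Dbp was set against that of 17 partners, the other 8 members and 9 genes of the clock loop, with group means removed and an exact permutation test over all orders of libraries within groups, two-sided. Bhlhe40 was the only partner past the adjusted threshold. Libraries with more Dbp had less Bhlhe40 (r = -0.868, exact permutation p = 0.00208, adjusted 0.0354; rho = -0.833, p = 0.00972, adjusted 0.0708), and r was -0.845 without HFDfre 1 and HFDfre 4, which lay farthest from the median of Dbp. The direction held in all 11 alternatives, with r from -0.914 to -0.679, but the call held in 2 of them. It was lost under library totals, where the adjusted permutation p was 0.514, and on leaving out any library other than HFDfri 3. Bhlhe41 went with Dbp (r = 0.811, exact permutation p = 0.0122, adjusted 0.103), as did Nr1d1, the REV-ERB alpha repressor (r = 0.758, exact permutation p = 0.0288, adjusted 0.163). The correlation with Dbp was -0.20 for Tef, -0.51 for Hlf, 0.01 for Nfil3, -0.45 for Ciart, 0.44 for Rora and -0.54 for Usp2. Among the other loop genes it was 0.52 for Arntl, -0.10 for Clock, 0.33 for Npas2 and -0.59 for Per1. It was -0.70 for Per2, 0.09 for Per3, -0.52 for Cry1 and 0.14 for Nr1d2. None of these passed with all libraries. Without HFDfri 2, Usp2 (r = -0.799, adjusted permutation p = 0.0236) and Bhlhe41 (r = 0.864, adjusted permutation p = 0.0354) passed. Without HFDfri 3, Rora passed (r = 0.678, adjusted permutation p = 0.0236).

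The genes that drive and repress the clock loop were examined next to the members. Of 5 clock activators 4 were tested and 0 passed, while 1 had an unadjusted p below 0.05; their median log2 fold change was 0.34, and 3 were above 0. That median was 0.13 without HFDfre 5, 0.18 without HFDfri 3, 0.53 without HFDfre 2 and 0.16 with limma-voom. Clock, the partner of BMAL1, stood at 10.4 to 12.9 CPM (median 11.8) in HFDfre and at 13.8, 19.6, 21.2 and 15.2 CPM in HFDfri. These groups did not overlap, and the log2 fold change was 0.58 ± 0.14 (edgeR adjusted p = 0.0664). Clock passed without HFDfri 1 at 0.66 (edgeR adjusted p = 0.0210), a fit in which 1106 genes passed against 150 with all libraries. It did not pass on leaving out any other library, with 0.47 without HFDfri 3 (edgeR adjusted p = 0.190). Arntl, which encodes BMAL1, stood at 1.17 ± 0.469 and 1.49 ± 0.367 CPM, and its log2 fold change was 0.35 ± 0.33 (edgeR adjusted p = 0.588), or 0.15 without HFDfre 5, 0.23 without HFDfri 4 and 0.53 without HFDfre 2. Of 7 clock repressors 0 passed, while 1 had an unadjusted p below 0.05, and their median was -0.03 with 3 above and 4 below 0, between -0.10 and 0.11 over the alternatives. Per3, a period gene, ran from 19.2 to 27.8 CPM in HFDfre and from 11.8 to 18.1 CPM in HFDfri. Those ranges did not overlap either, and the log2 fold change was -0.53 ± 0.15 (edgeR adjusted p = 0.0917). Per3 held 2 D-boxes in its upstream window. Nr1d1 stood at 48.7 ± 18.2 and 56.7 ± 22.9 CPM (log2 fold change 0.22 ± 0.30, edgeR adjusted p = 0.719), and this changed to -0.05 without HFDfri 1.

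Of 8 genes that modify or degrade clock proteins 0 passed, while 3 had an unadjusted p below 0.05, with a median of 0.01. Fbxl21, a ubiquitin ligase subunit that acts on the CRY proteins, was at 6.00 ± 1.24 and 3.34 ± 0.851 CPM (log2 fold change -0.84 ± 0.20, edgeR adjusted p = 0.0664). It passed without HFDfri 2 at -1.04 (edgeR adjusted p = 0.0331). It did not pass on leaving out any other library, with -0.77 without HFDfri 3 (edgeR adjusted p = 0.189). Fbxw11, a ubiquitin ligase subunit, differed by 0.32 ± 0.16 (edgeR adjusted p = 0.271), and by 0.45 without HFDfri 1, where it passed (edgeR adjusted p = 0.0382). Without HFDfri 3 it differed by 0.21 (edgeR adjusted p = 0.592). Of 14 other clock-controlled genes 0 passed, while 1 had an unadjusted p below 0.05, with a median of 0.12, or 0.02 without HFDfri 3, and 11 of them were above 0. Wee1, a cell cycle kinase, stood at 1.27 ± 0.453 and 2.39 ± 1.55 CPM and differed by 0.91 ± 0.49 (edgeR adjusted p = 0.316). It differed by 0.53 without HFDfri 3 (edgeR adjusted p = 0.692), and by 1.25 without HFDfri 1, where it passed (edgeR adjusted p = 0.0329). With all libraries 150 genes passed, against 1106 without HFDfri 1 and 235 without HFDfri 2. Lpin1, a phosphatidate phosphatase, differed by 0.67 ± 0.26 (edgeR adjusted p = 0.176). For these 4 lists DESeq2 called Clock higher and Per3 and Fbxl21 lower, and limma-voom called 0 genes. Over all tested genes 21.2% had an unadjusted p below 0.05.

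Liver genes described as downstream of the PAR bZIP proteins fell in part. Of 17 genes in that list all were tested, 5 fell and 0 rose, which is 29.4% against 0.556% of all tested genes lower. A further 9 were below 0 without passing, 3 were above 0, and the median log2 fold change was -0.77, or -0.51 without HFDfre 4. Of the 17, 6 did not overlap between the groups, all of them lower, against 3.66% of all tested genes. The 5 became 1 without HFDfre 3 or HFDfre 5, 2 without HFDfre 2, HFDfre 4, HFDfri 3 or HFDfri 4, and 7 without HFDfri 1. DESeq2 called 8 of the list lower and 1, Ppara, higher. Acot3 and Cyp4a14 were known from earlier results of these data when the list was written, so the count is not independent evidence of the list's direction. The genes that fell act in xenobiotic sensing and in fatty acid metabolism, and the Acot and Cyp4a genes are also textbook targets of the fatty acid receptor PPARα.

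Nr1i3, which encodes the xenobiotic receptor CAR, stood at 420, 630, 593, 486 and 446 CPM in HFDfre and at 212, 273, 262 and 346 CPM in HFDfri. The groups did not overlap (log2 fold change -0.92 ± 0.16, edgeR adjusted p = 0.0333). Tomm40l, which shares exons on the other strand, differed by 0.01 ± 0.22, and the counting of shared reads was not tested here either. Acot3, a peroxisomal acyl-CoA thioesterase, stood at 22.5, 22.1, 20.7, 50.4 and 28.2 CPM in HFDfre and at 4.29, 4.77, 8.05 and 3.92 CPM in HFDfri. This was the largest fall in the list (log2 fold change -2.45 ± 0.30, edgeR adjusted p = 0.0117). Acot4, its neighbour and close copy, fell from 25.3 ± 4.77 to 12.2 ± 2.24 CPM (log2 fold change -1.05 ± 0.16, edgeR adjusted p = 0.0293). Reads of Acot3 and Acot4 could be split between near-identical copies, so their separate values are uncertain. In the annotation both share exons on the same strand with Gm49366, a gene without values in these data. On the other strand both share exons with 4732463B04Rik, which differed by -0.63 ± 0.48 (edgeR adjusted p = 0.485). How such reads were counted was not tested. The fatty acid omega-hydroxylase Cyp4a10 fell from 520 ± 117 to 287 ± 48.6 CPM (log2 fold change -0.86 ± 0.17, edgeR adjusted p = 0.0396). Cyp4a14, a close relative, fell from 420 ± 192 to 135 ± 50.8 CPM (log2 fold change -1.63 ± 0.33, edgeR adjusted p = 0.0425). Cyp2a4, a steroid hydroxylase with the same caveat of close copies, did not pass at -1.94 ± 0.49 (edgeR adjusted p = 0.0741). Its level was low, at 3.11 ± 2.10 and 0.808 ± 0.297 CPM, and its groups overlapped. Cyp2a5 stood at 541 ± 70.9 and 285 ± 101 CPM without overlap and did not pass (log2 fold change -0.92 ± 0.21, edgeR adjusted p = 0.0566). Ppara itself stood at 21.7 ± 5.57 and 38.5 ± 14.5 CPM, and its log2 fold change was 0.82 ± 0.25 (edgeR adjusted p = 0.108). Of 14 of these genes with a promoter entry, 1 held a D-box, Ces1g, which did not pass, and 2 held an E-box, Nr1i3 and Acot4. Cyp4a10 and Cyp4a14 were among the genes without an entry and were not searched.

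**Figure D4:**
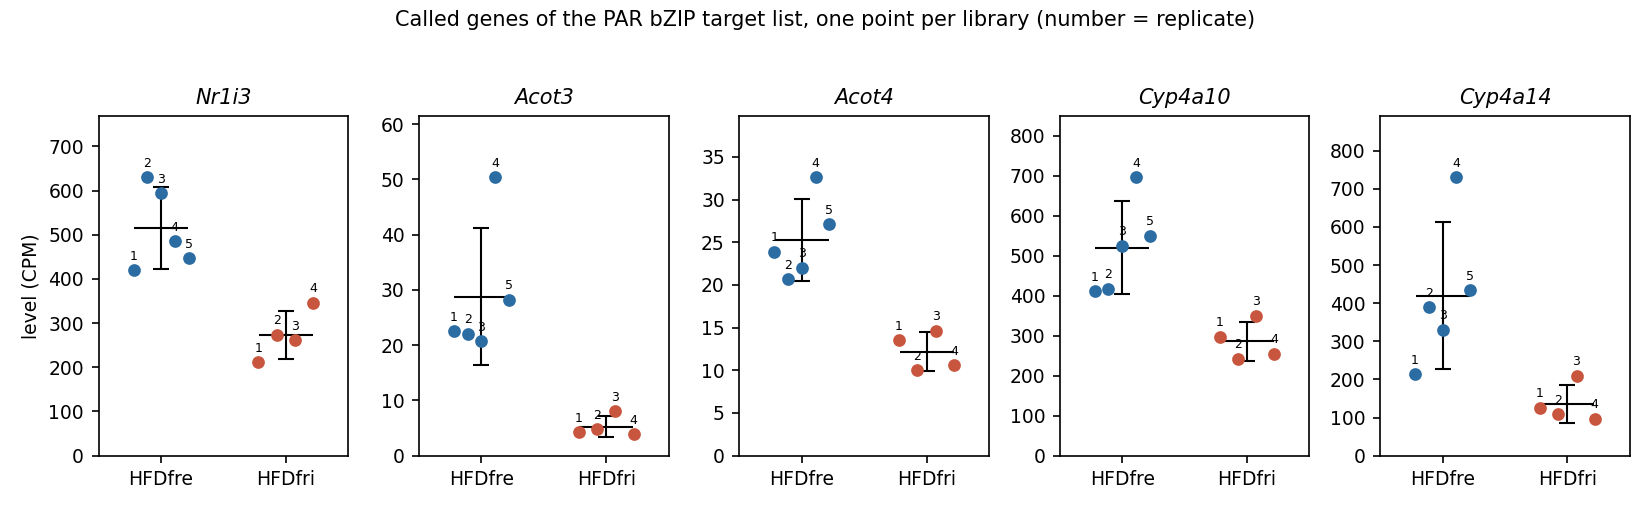
Level in CPM (y axis, from 0, own scale per gene) of the 5 PAR bZIP targets that passed the adjusted threshold, in the 5 HFDfre (blue) and 4 HFDfri (red) libraries numbered by replicate; black bars are the mean ± SD. In each gene every HFDfri point lies below every HFDfre point, and HFDfre 4 is the highest point for Acot3, Acot4, Cyp4a10 and Cyp4a14.

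HFDfre 4, the highest library for those 4 targets, had the lowest Dbp of HFDfre. This is 1 library picked after its values were seen, and the relation of Dbp to these targets across libraries was not tested. The 5 tested genes whose deviations were most like those of Dbp over the 9 libraries, out of 10114 searched, were Eva1a (r = 0.970), Abcc5 (0.967), Dcp1b (0.946), Slc6a12 (0.945) and Fgfr3 (0.936). For Nfil3 they were C2 (r = 0.940), Ppt2 (0.923), Nav2 (0.917), Gm16348 (0.912) and Grtp1 (0.909). None of these 10 genes passed the adjusted threshold between the groups.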

How the data were processed

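The series holds 5 HFDfre and 4 HFDfri liver RNA-seq libraries, grouped by the storage condition in the labels. Per the labels' processing notes the authors used HISAT2, StringTie and the mm10 build, with versions, annotation and strand use not given in the sources used here. The labels name NEBNext Ultra and the methods KAPA RNA HyperPrep as library kit, which was not settled. The values the authors deposited are estimated counts per gene, whole numbers not scaled between libraries; they were used as they stood. Counting error is covered only in so far as these are reads.

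Identifiers were matched to GENCODE M21 (GRCm38, 96.3% found). Genes were kept with filterByExpr, and HFDfri was set against HFDfre in edgeR 4.0.16 (R 4.3.3; quasi-likelihood, TMM, no covariate) with Benjamini-Hochberg adjustment over 14220 genes. The SE is the log2 fold change divided by the square root of F. Log2 CPM used a prior count of 2. Correlations used deviations from group means, with adjustment over 17 partners. The labels do not say whether libraries are separate animals, so p-values measure the spread between these samples. The study used DESeq2, run here as an alternative (1.42.0), beside limma-voom (3.58.1). The scripts were tested on simulated data.

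Named genes are the members, the pathway genes past the threshold, the 2 genes with the largest change per list, the correlation partners, and the 5 genes most like Dbp and Nfil3. The members and lists were chosen with earlier results of these data known. Ppara and Cyp2a5 were named after their values were seen.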

Additional observations from a re-analysis of the deposited data

Results flagged for a closer look

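Within groups of 4 or 5 libraries, 46 sets of values of members and named pathway genes were searched for 1 library far from the others, where chance gives about 1 in 20, or 2.3 sets, and 3 were found. Hlf in HFDfri was 5.03 log2 CPM in HFDfri 1, against 5.59 to 5.68 in the others. Ciart in HFDfri was 2.68 log2 CPM in HFDfri 1, against 3.99 to 4.07 in the others. Fbxl21 in HFDfri was 2.21 log2 CPM in HFDfri 2, against 1.52 to 1.63 in the others. Tef and Usp2 were also lowest in HFDfri 1, but their gaps did not pass. The part of that library in these results was not tested beyond leaving it out, as given with each gene.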

How the results depend on the processing

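The number of genes called, 150, became 1033 under DESeq2, 76 when scaled by library totals, 72 without a filter, 38 with the Gm26924 share as a covariate, and 6 to 1106 on leaving out 1 library (39, 51, 6, 46 and 6 without HFDfre 1 to 5, 1106, 235, 10 and 26 without HFDfri 1 to 4). The PAR bZIP targets called, 5, became 9 under DESeq2, 2 when scaled by library totals, 3 without a filter, 1 with the covariate, and 1 to 7 without 1 library (1 without HFDfre 3 or HFDfre 5, 2 without HFDfre 2, HFDfre 4, HFDfri 3 or HFDfri 4). With the replicate number as a block, edgeR called 0 genes, with 2536 at an unadjusted p under 0.05, and 0 PAR bZIP targets, with 11. Over all tested genes the deviations of same-numbered libraries correlated at 0.0270, 0.0813, -0.136 and 0.0339. These values show no pairing by number over all genes, and pairing in a subset of genes was not tested. The labels do not give the numbers as pairs. Partners correlated with Dbp, 1, were 0 with library totals and 0 to 2 without 1 library (2 without HFDfri 2 or HFDfri 3, 0 without any other). The fits without 1 library have fewer orders to permute, so their calls are not directly comparable with the main one. Nr1d1 reversed from 0.22 to -0.049 without HFDfri 1 (-0.049 to 0.44 over these fits). The log2 fold change of Dbp ran from -0.88 to -0.73 over the 17 alternatives and its call held in 11 of them, as a description. Acot3 passed in 16 of 17, Acot4 in 12, Nr1i3 in 9, Cyp4a14 in 6 and Cyp4a10 in 5. With the block the median of the clock activators was 0.02 and Arntl was 0.15. The causes of these changes were not tested.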

Other observations

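Rora in HFDfri 4 was 11.1-fold below the lowest of the other 8 libraries. Chosen after this value was seen, a search for genes with at least 10 CPM in the other 8 libraries and over 8-fold less in 1 library found 1 gene in each of 5 libraries: Cpne1 in HFDfre 1, Samd8 in HFDfre 3, Hipk1 in HFDfre 4, Lats1 in HFDfre 5 and Rora in HFDfri 4. It found 0 in HFDfre 2, HFDfri 1, HFDfri 2 and HFDfri 3, among 5583 to 5649 genes searched per library. The cause was not tested.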
